A study of Sus scrofa with 9 samples.

Results

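The nuclear-encoded parts of the mitochondrial ribosome and of the mitochondrial protein import machinery were followed in the mammary gland of sows from late pregnancy to lactation. Members were the genes whose annotated symbol begins MRPL, MRPS, TIMM or TOMM followed by a digit, which gave 76 genes on 99 probe sets of the 6765 genes on 10099 probe sets that carry a single symbol. They comprised 36 MRPL genes, named for the large mitoribosomal subunit, and 22 MRPS genes, named for the small subunit. The others were 11 TIMM genes, named for inner membrane translocases, and 7 TOMM genes, named for those of the outer membrane. A symbol does not fix the place of every product, as for MRPS36 and TOMM34 below. All 76 genes had at least 1 probe set bright enough to be tested, against 5670 of the 6765 genes as a whole, and 10 of the 99 probe sets did not. A further 6 probe sets, 5 of them for MRPL55 and 1 for MRPL22, carried several annotation entries and were left out. The tissue came from 6 Large White sows fed a standard corn and soybean diet, each biopsied in late pregnancy 17 days before parturition (day -17), 1 day after it (day 1) and in lactation 17 days after it (day 17). Equal volumes of RNA from 2 sows made up each hybridized sample, so that each day is represented by 3 pools on Affymetrix porcine GeneChips, 9 arrays in all. The same sows gave tissue on all 3 days, and on each day the pools are numbered 1 to 3, but the labels do not say that a number marks the same sows.

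Mitochondria make a small set of respiratory chain proteins on their own ribosomes, whose RNA is encoded in mitochondrial DNA and whose proteins are all made in the cytosol and imported. Precursors cross the outer membrane through the TOM complex. They then take the TIM23 route into the matrix, the TIM22 route into the inner membrane, or are escorted across the intermembrane space by the small TIM chaperones. In the lactating mammary gland, secretory epithelial cells are known for a large energy demand and abundant mitochondria.

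Each gene is given as its MAS5 signal, a linear intensity whose trimmed mean was nearly the same on every array, lying between 500.088 and 500.112 on the 9 arrays. Differences are log2 differences ± standard error from limma over all 9 arrays, with n = 3 pools per day and p adjusted over 15519 probe sets, and a gene was called higher or lower where its adjusted p was under 0.05. Where a gene had several tested probe sets, the one with the highest mean log2 signal stood for it. Signals of different genes depend on their probes and are not compared. A difference is therefore relative to the bulk of the transcripts on the array. The hybridization controls, bacterial and phage transcripts added in fixed amounts, averaged 11.63 to 11.74 log2 units on day -17, 12.02 to 12.18 on day 1 and 12.90 to 13.00 on day 17. When arrays were instead scaled to these controls, the median log2 difference of all tested genes was -0.42 on day 1 against day -17, -0.89 on day 17 against day 1 and -1.31 on day 17 against day -17, in place of -0.00082, -0.04 and -0.03. Each of the 20 member genes called higher on day 17 against day -17 turned negative under that scaling, and each family's counts under it are given beside the main ones. In bulk tissue, fewer cells of a type and less RNA per cell cannot be told apart. As a sum, the tissue markers fitted the label. All 12 listed milk protein and luminal epithelial genes on the array were tested. Their summed signal was 88535 to 114809 on day -17, 239439 to 340305 on day 1 and 497404 to 505376 on day 17. Bright genes weigh most in that sum, and of the 12 genes 8 rose and 2 fell on day 17 against day -17. In that comparison 23.8% of all tested genes were called higher and 23.8% lower.

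The members moved in both directions, and most of the change lay between late pregnancy and lactation. On day 1 against day -17, 16 of the 76 genes rose and 4 fell, while 15.3% of all 5670 tested genes were called higher and 10.4% lower. The median log2 difference of the members was 0.19, against -0.00082 over all tested genes. On day 17 against day 1 a single member rose and 4 fell, where 8.02% of all genes were called higher and 8.57% lower, with a median of -0.11 for the members and -0.04 for all genes. On day 17 against day -17, 20 members rose and 12 fell, against 23.8% of all genes called higher and 23.8% lower, and the medians were 0.10 and -0.03. An F test over the 3 days called 32 members, 42.1%, against 47.8% of all genes. The 3 comparisons share arrays pair by pair, so their counts are not independent. Scaling to the hybridization controls changed these counts to 5 higher and 25 lower, 0 higher and 70 lower, and 0 higher and 72 lower in the 3 comparisons. Of all genes, 6.79% were then called higher and 39.0% lower, 0.723% and 75.7%, and 3.26% and 83.0%. The gap between the members' median and that of all genes was 0.19, -0.07 and 0.13. Scaling to the controls cannot change this gap, since it shifts all genes of an array by the same amount. Without pool 3 of day 1, 10 members rose and 2 fell on day 1 against day -17. The calls over all 5670 genes were then 569 higher and 302 lower, against 865 and 590 with all pools. The falls on day 17 against day 1 numbered 7 without pool 1 of day 1 and 2 without pool 3 of day 1 or pool 3 of day 17. No rise was called there without any 1 of 6 pools (all but pools 1 and 2 of day -17 and pool 3 of day 1). Without pool 3 of day -17, 7 members fell on day 17 against day -17. With the pool number as a block, the single rise on day 17 against day 1 became 2.

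**Figure D1:**
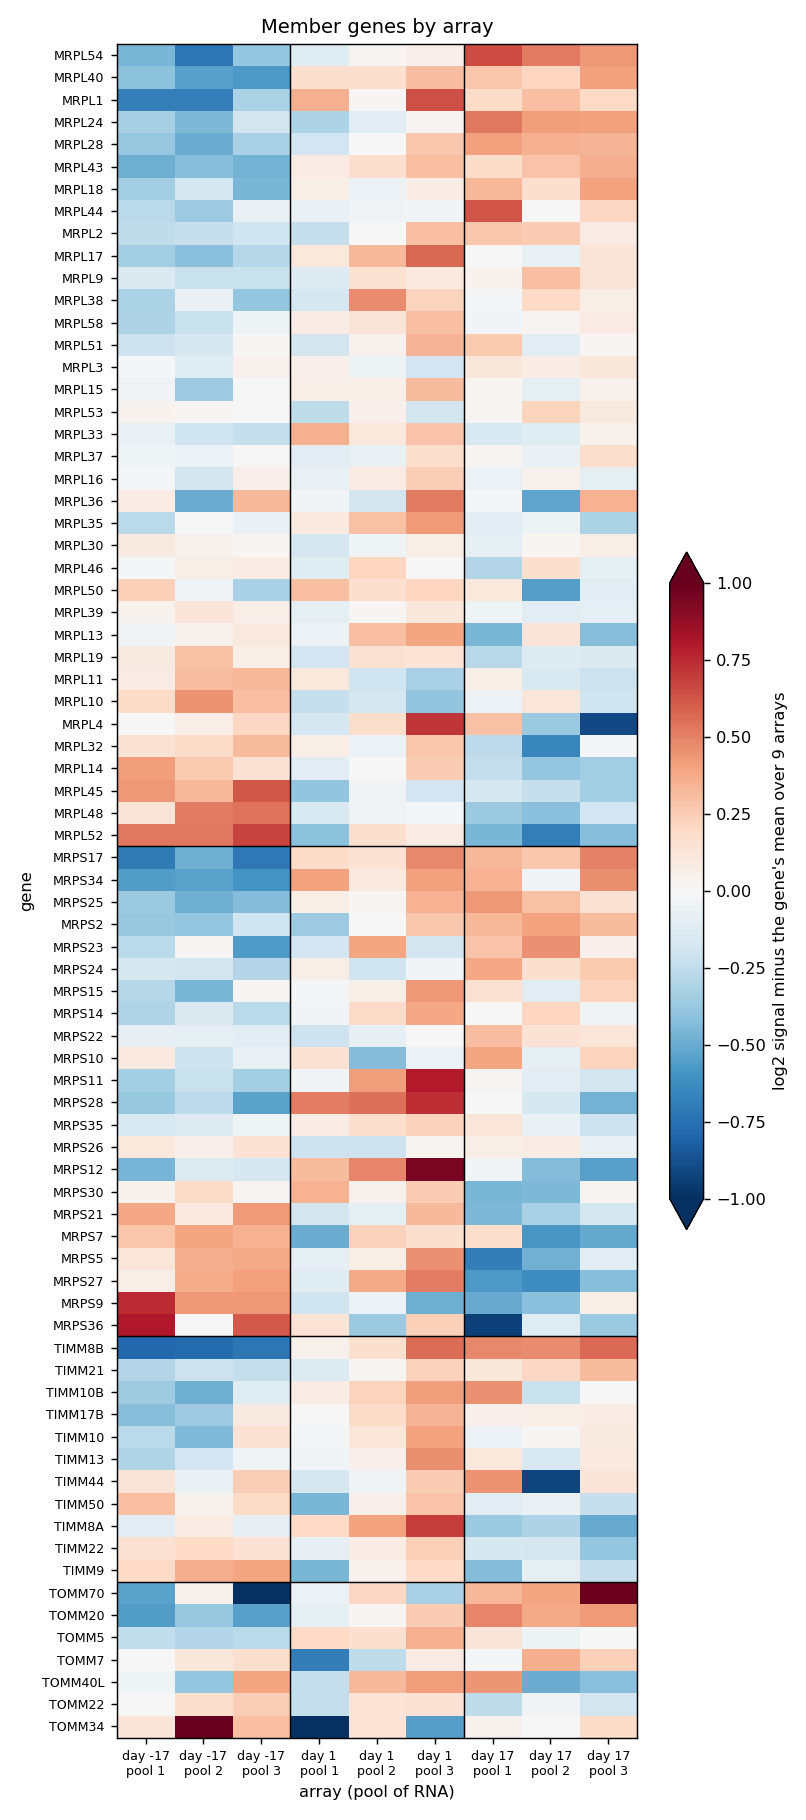
Log2 signal of the 76 member genes (rows, grouped as MRPL, MRPS, TIMM and TOMM and ordered by their day 17 against day -17 difference) in the 9 pools (columns), shown as the deviation from each gene's mean over the arrays, with the colour scale ending at 1 log2 unit in either direction. Within each family some genes run from blue on day -17 to red on day 17 and others the opposite way, relative to each array's trimmed mean, and pool 3 of day 1 is red in most rows.

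The small TIM chaperones, which form ring-shaped complexes in the intermembrane space, split into different courses. TIMM8B had signals of 2028, 2048 and 2119 in the 3 pools of day -17, 3600, 3900 and 5130 on day 1, and 4861, 4840 and 5176 on day 17. The pools of day -17 lay in a narrow band below every later pool. TIMM8B rose by 1.01 ± 0.14 on day 1 against day -17 (2.02-fold, adjusted p = 0.000913) and by 1.26 ± 0.14 on day 17 against day -17 (2.40-fold, adjusted p = 8.28e-05), the largest rise of any member in both comparisons. Its difference on day 17 against day 1 was 0.25 ± 0.14 (adjusted p = 0.242). With the hybridization controls as the scale, the day 1 rise was 0.59 (adjusted p = 0.00322) and the day 17 difference was -0.01 (adjusted p = 0.911).

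TIMM8A, the paralog whose loss causes a deafness and dystonia syndrome in humans, peaked on day 1. Its signals were 479, 543 and 488 on day -17, 591, 683 and 833 on day 1 and 399, 417 and 363 on day 17. All day 1 pools exceeded all others, and the day 17 pools were the lowest. TIMM8A fell by 0.83 ± 0.16 on day 17 against day 1 (adjusted p = 0.0104), whereas the difference on day 1 against day -17 was 0.47 ± 0.16 (adjusted p = 0.0569) and that on day 17 against day -17 was -0.36 ± 0.16 (adjusted p = 0.0914).

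TIMM9, a partner of TIMM10 in the chaperone that delivers carrier proteins, had signals of 1644, 1838 and 1880 on day -17, 1043, 1476 and 1640 on day 1 and 1059, 1346 and 1217 on day 17. All day 17 pools lay below those of day -17, and the day 1 pools overlapped day 17. TIMM9 fell by 0.57 ± 0.18 on day 17 against day -17 (adjusted p = 0.0234). That call ended without pool 2 or 3 of day -17 (adjusted p = 0.0623 and 0.0721) and without pool 1 or 3 of day 17 (0.0852 and 0.0551), and under median centring (0.0594).

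The other small TIM genes passed in no comparison. TIMM10, the partner in the TIMM9 complex, had signals of 1029, 915 and 1373 on day -17, 1230, 1344 and 1639 on day 1 and 1190, 1252 and 1319 on day 17, with overlapping days throughout. TIMM13, the partner of TIMM8A, had signals of 1201, 1298 and 1450 on day -17, 1444, 1536 and 2049 on day 1 and 1597, 1332 and 1582 on day 17, and its days overlapped as well. For TIMM10B, which tethers the chaperone to the TIM22 complex, the signals were 373, 341 and 440 on day -17, 504, 558 and 641 on day 1 and 658, 411 and 479 on day 17. All 3 day 1 pools of TIMM10B lay above those of day -17, but the difference of 0.56 ± 0.20 did not pass (adjusted p = 0.0635). Of the 6 small TIM genes, 1 rose on day 1 against day -17 (1 higher and 1 lower with hybridization control scaling). On day 17 against day 1, 1 fell (6 with that scaling). Against day -17, 1 rose and 1 fell on day 17 (5 lower with that scaling). In these comparisons 15.3%, 8.02% and 23.8% of all tested genes were called higher, and 10.4%, 8.57% and 23.8% lower.

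Among the inner membrane translocases, the channel gene TIMM22 of the carrier route and the TIM23 subunit gene TIMM21 moved in opposite directions by day 17. TIMM22 had signals of 465, 481 and 464 on day -17, 396, 443 and 495 on day 1 and 376, 374 and 320 on day 17. The pools of day 17 were all below those of both other days. TIMM22 fell by 0.40 ± 0.15 on day 17 against day -17 (adjusted p = 0.0470, and 0.0584 with the pool number as a block). The call also ended without any 1 of 7 pools, the exceptions being pools 1 and 3 of day 1 (adjusted p 0.0615 to 0.140), and under quantile normalization (adjusted p = 0.235), median centring (0.128), no filter (0.0694) and the fit of the 6 compared arrays (0.0534).

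TIMM21, which links the TIM23 complex to TOM and to respiratory chain assembly, had signals of 680, 716 and 703 on day -17, 755, 841 and 976 on day 1 and 900, 959 and 1036 on day 17. Every day 17 pool was above every day -17 pool, with the day 1 pools between or overlapping day 17. TIMM21 rose by 0.46 ± 0.14 on day 17 against day -17 (adjusted p = 0.0192; -0.82 with hybridization control scaling). Without pool 1 of day -17 or pool 3 of day 17 its adjusted p was 0.0501 and 0.0664.

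The remaining TIM23 genes gave no call. TIMM17B, a channel subunit, had signals of 444, 461 and 632 on day -17, 593, 677 and 752 on day 1 and 614, 618 and 626 on day 17. TIMM50, the receptor of the complex, had signals of 603, 500 and 559 on day -17, 356, 505 and 597 on day 1 and 451, 467 and 416 on day 17. TIMM44, which recruits the matrix import motor, had signals of 161, 140 and 175 on day -17, 130, 143 and 176 on day 1 and 201, 77.7 and 161 on day 17. The days of TIMM44 and TIMM17B overlapped in every comparison, whereas all day 17 pools of TIMM50 lay below those of day -17 (-0.31 ± 0.19, adjusted p = 0.203). Across all 11 TIMM genes, 1 rose on day 1 against day -17 (1 higher and 3 lower with hybridization control scaling). On day 17 against day 1, 1 fell (11 lower with that scaling). Against day -17, 2 rose and 2 fell on day 17 (10 lower with that scaling). The shares of all tested genes called higher in these comparisons were 15.3%, 8.02% and 23.8%, and those called lower 10.4%, 8.57% and 23.8%.

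**Figure D2:**
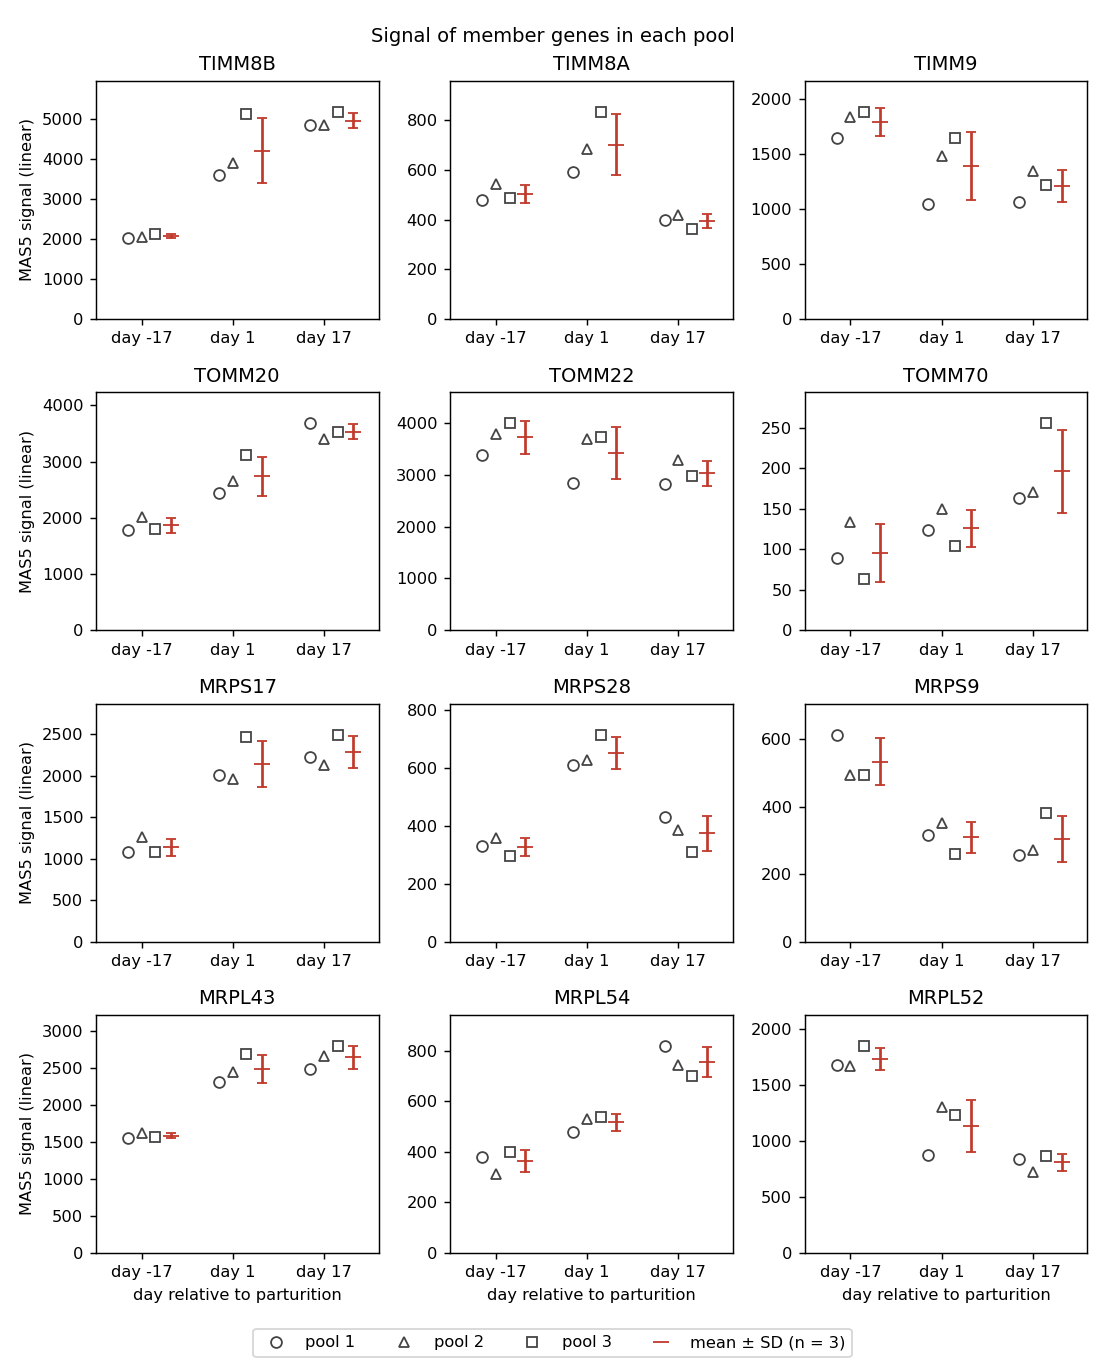
Linear MAS5 signal (vertical axes, from 0, each on its own scale) of 12 member genes in the 3 pools of each day, with circles, triangles and squares for pools 1, 2 and 3 and the red bar for the mean ± SD. Every day 17 pool of TIMM8B, TOMM20, MRPS17, MRPL43 and MRPL54 is above every day -17 pool, relative to the trimmed mean. Their differences turned negative when arrays were scaled to the hybridization controls. TOMM20 and MRPL43 were then called lower, while TIMM8B, MRPS17 and MRPL54 did not pass. TIMM8A and MRPS28 are highest on day 1, and TIMM9, MRPS9 and MRPL52 are lower on day 17 than on day -17.

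Of the TOM genes, the receptor genes TOMM20 and TOMM70 and the small subunit gene TOMM5 rose by day 17, and the central receptor gene TOMM22 did not. TOMM20, which recognises cleavable targeting sequences, had signals of 1781, 2015 and 1798 on day -17, 2445, 2653 and 3116 on day 1 and 3680, 3399 and 3523 on day 17. Its 3 days did not overlap and increased in order. TOMM20 rose by 0.55 ± 0.12 on day 1 against day -17 (adjusted p = 0.0109) and by 0.92 ± 0.12 on day 17 against day -17 (1.90-fold, adjusted p = 0.000283), with 0.37 ± 0.12 on day 17 against day 1 (adjusted p = 0.0699). Under hybridization control scaling these differences were 0.13 for day 1 and -0.35 for day 17 against day -17.

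TOMM5, a small subunit that stabilises the TOM channel, had signals of 2576, 2491 and 2534 on day -17, 3504, 3417 and 3895 on day 1 and 3335, 2944 and 3043 on day 17. The day 1 pools were the highest and those of day -17 the lowest, with no overlap. TOMM5 rose by 0.51 ± 0.11 on day 1 against day -17 (adjusted p = 0.00857). The day 1 difference of TOMM5 was 0.09 with hybridization control scaling (adjusted p = 0.4985). Its rise of 0.29 ± 0.11 on day 17 against day -17 (adjusted p = 0.0468; -0.99 with hybridization control scaling) was lost without any 1 of 7 pools, the exceptions being pools 1 and 3 of day 1 (adjusted p 0.0558 to 0.148), under quantile normalization (0.0946) and without the filter (0.0614).

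TOMM70, the receptor for carrier precursors handed over by cytosolic chaperones, was dim, with signals of 89.4, 133 and 63.2 on day -17, 124, 149 and 103 on day 1 and 163, 170 and 255 on day 17. Its day 17 pools were above all others, while days -17 and 1 overlapped. TOMM70 rose by 1.08 ± 0.32 on day 17 against day -17 (2.11-fold, adjusted p = 0.0197; -0.20 with hybridization control scaling), a call that ended without pool 3 of day -17 (adjusted p = 0.0732) or pool 3 of day 17 (0.0760).

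TOMM22 had signals of 3379, 3796 and 3993 on day -17, 2846, 3695 and 3729 on day 1 and 2827, 3284 and 2969 on day 17, a difference of -0.30 ± 0.14 on day 17 against day -17 (adjusted p = 0.0985). TOMM7, another small subunit, gave 4313, 4639 and 4795 on day -17, 2664, 3605 and 4550 on day 1 and 4251, 5539 and 5080 on day 17. TOMM40L, a homologue of the channel protein, gave 331, 261 and 447 on day -17, 288, 426 and 456 on day 1 and 462, 241 and 254 on day 17. The days overlapped in both genes, and neither passed. TOMM34, a cytosolic cochaperone of import, had signals of 182, 342 and 205 on day -17, 67.9, 183 and 114 on day 1 and 171, 166 and 188 on day 17, with a difference of -1.06 ± 0.36 on day 1 against day -17 that missed the threshold (adjusted p = 0.0559). In all, 2 of the 7 TOMM genes rose on day 1 against day -17 (0 higher and 3 lower with hybridization control scaling). None passed on day 17 against day 1 (4 lower with that scaling), where at an adjusted p of 0.0699 TOMM20 came nearest. Against day -17, 3 rose on day 17 (6 lower with that scaling). Of all tested genes, 15.3%, 8.02% and 23.8% were called higher in these comparisons, and 10.4%, 8.57% and 23.8% lower.

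Of the 22 MRPS genes, named for the small mitoribosomal subunit, 6 rose and 1 fell on day 1 against day -17 (3 and 6 with hybridization control scaling). These were 27.3% and 4.5%, against 15.3% and 10.4% of all tested genes. None rose and 3 (13.6%) fell on day 17 against day 1 (21 lower with that scaling), against 8.02% and 8.57% of all genes. On day 17 against day -17, 5 rose and 5 fell (0 and 21 with that scaling). These were 22.7% each, against 23.8% higher and 23.8% lower of all genes. The courses of the called genes differed.

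MRPS17, a protein of bacterial ancestry that binds the small subunit RNA, had signals of 1083, 1259 and 1078 on day -17, 2006, 1957 and 2469 on day 1 and 2232, 2127 and 2497 on day 17. All pools after parturition lay far above all pools before it. MRPS17 rose by 0.91 ± 0.14 on day 1 against day -17 (1.88-fold, adjusted p = 0.00166) and by 1.00 ± 0.14 on day 17 against day -17 (2.00-fold, adjusted p = 0.000317); the second became -0.27 (adjusted p = 0.0645) with hybridization control scaling.

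MRPS34, a mitochondria-specific protein needed for small subunit stability, followed the same course, with signals of 1027, 1046 and 1001 on day -17, 2006, 1621 and 2007 on day 1 and 1923, 1482 and 2085 on day 17. Neither lactation day overlapped day -17. MRPS34 rose by 0.87 ± 0.15 on day 1 against day -17 (adjusted p = 0.00350) and by 0.82 ± 0.15 on day 17 against day -17 (adjusted p = 0.00188; -0.46 with hybridization control scaling).

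MRPS25, also mitochondria-specific, had signals of 590, 544 and 566 on day -17, 792, 768 and 968 on day 1 and 1032, 935 and 844 on day 17, again with no overlap between day -17 and the later days. MRPS25 rose by 0.57 ± 0.14 on day 1 (adjusted p = 0.0188) and by 0.72 ± 0.14 on day 17 (adjusted p = 0.00266; -0.56 with hybridization control scaling), both against day -17. The day 1 call ended without pool 2 or 3 of day -17 (adjusted p = 0.0576 and 0.0550) or pool 3 of day 1 (0.0688). Under hybridization control scaling the day 1 difference was 0.15 (adjusted p = 0.415).

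MRPS28 and MRPS12 were high on day 1 alone. MRPS28 had signals of 329, 357 and 297 on day -17, 613, 628 and 716 on day 1 and 430, 385 and 309 on day 17. The day 1 pools stood clear of all others, and days -17 and 17 overlapped. MRPS28 rose by 0.99 ± 0.17 on day 1 against day -17 (1.99-fold, adjusted p = 0.00287) and fell by 0.81 ± 0.17 on day 17 against day 1 (adjusted p = 0.0133), which left 0.18 ± 0.17 between days 17 and -17 (adjusted p = 0.391).

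MRPS12, the counterpart of the bacterial decoding-centre protein S12, had signals of 268, 336 and 331 on day -17, 460, 518 and 715 on day 1 and 362, 274 and 254 on day 17. Day 1 again lay above both other days, which overlapped each other. MRPS12 rose by 0.84 ± 0.21 on day 1 against day -17 (adjusted p = 0.0188) and fell by 0.92 ± 0.21 on day 17 against day 1 (adjusted p = 0.0202). The rise was lost without pool 1 of day -17 (adjusted p = 0.0579) or pool 3 of day 1 (0.0725), and the fall without pool 3 of day 1 (0.0638) or pool 2 or 3 of day 17 (0.0673 and 0.0731). With hybridization control scaling the rise was 0.42 and did not pass (adjusted p = 0.105). A second probe set for MRPS12 read 246, 231 and 235 on day -17, 429, 397 and 536 on day 1 and 255, 249 and 208 on day 17, and passed in the same 2 comparisons, with 0.93 ± 0.17 (adjusted p = 0.00466) and -0.93 ± 0.17 (adjusted p = 0.00876).

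Set against the mean of days -17 and 17, day 1 was higher for 4 members, where 4.64% of all genes were called higher, and lower for none, where 1.75% were called lower. These 4 were MRPS28 (0.90 ± 0.15, adjusted p = 0.0111), MRPS12 (0.88 ± 0.18, adjusted p = 0.0278), TIMM8A (0.65 ± 0.14, adjusted p = 0.0296) and MRPL17 (0.50 ± 0.12, adjusted p = 0.0429).

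On day 17 against day -17 the largest falls among the MRPS genes were those of MRPS36, MRPS9 and MRPS27. MRPS9, another protein with a bacterial counterpart, had signals of 614, 493 and 493 on day -17, 317, 351 and 260 on day 1 and 257, 273 and 382 on day 17. All pools of both lactation days were below those of day -17. MRPS9 fell by 0.79 ± 0.20 on day 1 (adjusted p = 0.0194) and by 0.83 ± 0.20 on day 17 (adjusted p = 0.00743), each against day -17. The day 1 call ended without pool 1 of day -17 (adjusted p = 0.0625) or pool 3 of day 1 (0.0734).

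MRPS27, an RNA-binding pentatricopeptide protein, had signals of 538, 666 and 685 on day -17, 472, 667 and 735 on day 1 and 346, 334 and 384 on day 17. The day 17 pools were the lowest, while the earlier days overlapped. MRPS27 fell by 0.82 ± 0.19 on day 17 against day -17 (adjusted p = 0.00557) and by 0.79 ± 0.19 on day 17 against day 1 (adjusted p = 0.0225). The second call ended without pool 2 or 3 of day 1 (adjusted p = 0.0660 and 0.0721) or without any of the 3 pools of day 17 (0.0512 to 0.0732).

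MRPS36 was named for the mitoribosome and is now known as a subunit of the 2-oxoglutarate dehydrogenase complex. It was dim, with signals of 188, 108 and 165 on day -17, 118, 83.2 and 127 on day 1 and 56.2, 99 and 83 on day 17. Its day 17 pools lay just below those of day -17. MRPS36 fell by 0.95 ± 0.33 on day 17 against day -17 (adjusted p = 0.0376), a call that ended without pool 1 or 3 of day -17 (adjusted p = 0.128 and 0.109) or pool 1 or 3 of day 17 (0.117 and 0.0630), under median centring (0.0592) and without the filter (0.0538).

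Changes were also called for 5 other MRPS genes. MRPS11 rose by 0.70 ± 0.19 on day 1 against day -17 (adjusted p = 0.0264), with day 1 pools from 735 to 1298 and day -17 pools from 589 to 641, and lost the call without any pool of day -17 or without pool 2 or 3 of day 1 (adjusted p 0.0522 to 0.0860) and in the fit of the 6 compared arrays (0.0595). With hybridization control scaling MRPS11 gave 0.28 (adjusted p = 0.213). MRPS2 rose by 0.67 ± 0.17 on day 17 against day -17 (adjusted p = 0.00912) and MRPS24 by 0.48 ± 0.12 (adjusted p = 0.00917), and with hybridization control scaling they gave -0.61 and -0.80. In the same comparison MRPS21 fell by 0.62 ± 0.16 (adjusted p = 0.0110) and MRPS5 by 0.72 ± 0.21 (adjusted p = 0.0190); the call of MRPS5 ended without pool 2 or 3 of day -17 (0.0570 and 0.0616) or pool 1 or 2 of day 17 (0.0683 and 0.0527). These 5 proteins all belong to the core shared with bacterial ribosomes.

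**Figure D3:**
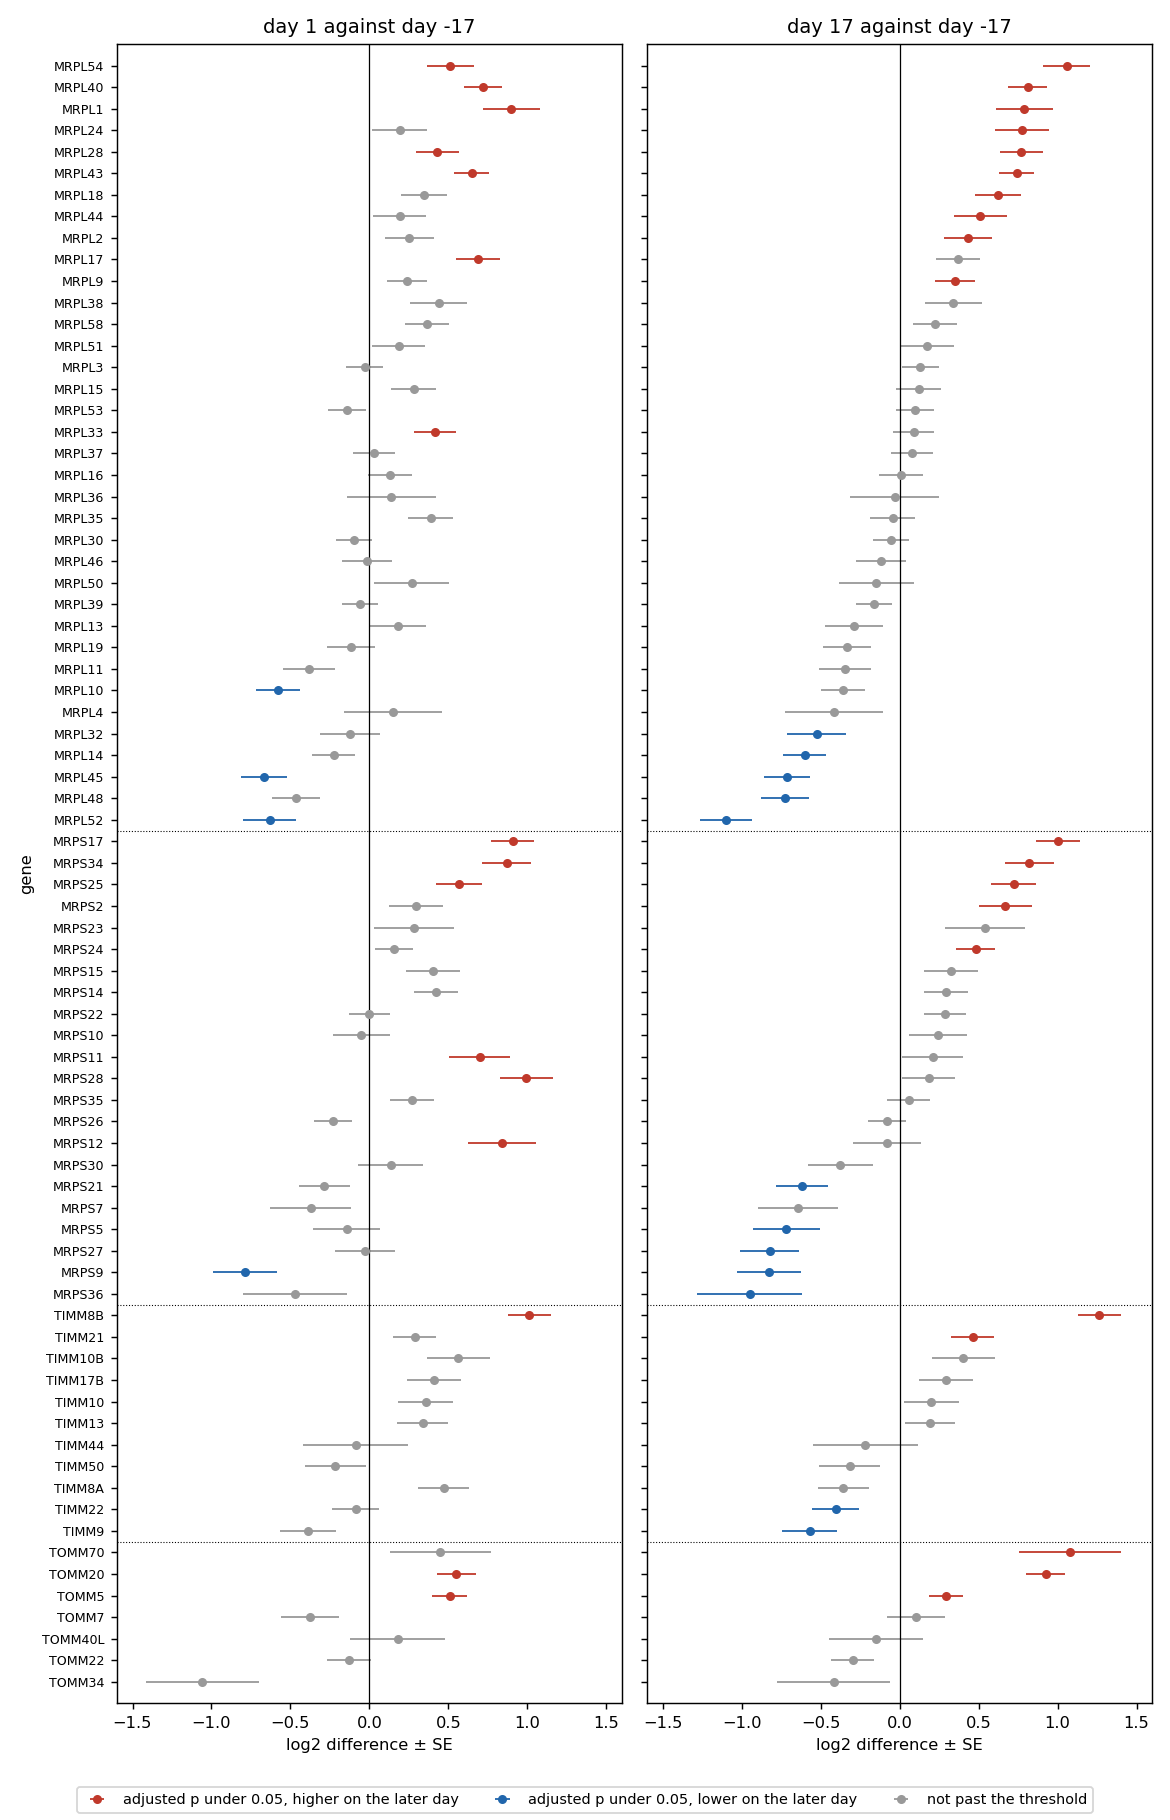
Log2 difference ± standard error (horizontal axes) of every member gene (rows, ordered as in the heat map) on day 1 against day -17 (left) and day 17 against day -17 (right), relative to each array's trimmed mean, with red for genes called higher, blue for genes called lower and grey for genes past no threshold (n = 3 pools per day). In the left panel 16 genes are red and 4 blue, and in the right panel 20 are red and 12 blue; with hybridization control scaling the counts were 5 and 25, and 0 and 72.

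Of the 36 MRPL genes, named for the large subunit, 7 rose and 3 fell on day 1 against day -17 (1 and 13 with hybridization control scaling). These were 19.4% and 8.3%, against 15.3% and 10.4% of all tested genes. A single gene (2.8%) rose and none fell on day 17 against day 1 (0 and 34 with that scaling), against 8.02% and 8.57% of all genes. Between days 17 and -17, 10 rose and 5 fell (0 and 35 with that scaling). These were 27.8% and 13.9%, against 23.8% higher and 23.8% lower of all genes.

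MRPL54, a mitochondria-specific protein, was the sole member called higher on day 17 against day 1. It had signals of 378, 314 and 398 on day -17, 478, 530 and 539 on day 1 and 818, 743 and 700 on day 17. The 3 days formed separate, ascending bands. MRPL54 rose by 1.06 ± 0.15 on day 17 against day -17 (2.08-fold, adjusted p = 0.000376), by 0.51 ± 0.15 on day 1 against day -17 (adjusted p = 0.0318) and by 0.55 ± 0.15 on day 17 against day 1 (adjusted p = 0.0368). The last 2 calls were weak. The day 1 call was lost without pool 1 or 2 of day -17 or pool 2 or 3 of day 1 (adjusted p 0.0550 to 0.106) and in the fit of the 6 compared arrays (0.0645). The day 17 against day 1 call was lost without any 1 of 7 pools, the exceptions being pools 1 and 2 of day -17 (adjusted p 0.0504 to 0.113), under median centring (0.0717) and without the filter (0.0525). With hybridization control scaling, MRPL54 gave 0.09 on day 1 against day -17 (adjusted p = 0.621). That scaling gave -0.22 on day 17 against day -17 and -0.31 on day 17 against day 1.

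MRPL1, a protein of the mobile stalk near the tRNA exit, had signals of 551, 552 and 711 on day -17, 1134, 893 and 1385 on day 1 and 1007, 1093 and 1017 on day 17. Both lactation days lay above day -17, and day 1 spread more widely than day 17. MRPL1 rose by 0.90 ± 0.18 on day 1 (1.86-fold, adjusted p = 0.00624) and by 0.79 ± 0.18 on day 17 (1.73-fold, adjusted p = 0.00510; -0.49 with hybridization control scaling), each against day -17.

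MRPL40 and MRPL43, both mitochondria-specific, were steadier between pools. MRPL40 had signals of 872, 796 and 778 on day -17, 1296, 1297 and 1435 on day 1 and 1403, 1348 and 1541 on day 17, and rose by 0.72 ± 0.12 on day 1 (adjusted p = 0.00288) and by 0.81 ± 0.12 on day 17 (adjusted p = 0.000548; -0.47 with hybridization control scaling) against day -17. MRPL43 had signals of 1558, 1622 and 1572 on day -17, 2314, 2452 and 2688 on day 1 and 2484, 2661 and 2799 on day 17, and rose by 0.65 ± 0.11 on day 1 (adjusted p = 0.00314) and by 0.74 ± 0.11 on day 17 (adjusted p = 0.000570; -0.54 with hybridization control scaling) against day -17. In both genes the lactation days overlapped each other and neither reached down to day -17. With hybridization control scaling the day 1 differences were 0.30 for MRPL40 (adjusted p = 0.0668) and 0.23 for MRPL43 (adjusted p = 0.101). A second MRPL43 probe set passed in the same 2 comparisons, at 0.67 ± 0.15 (adjusted p = 0.0107) and 0.94 ± 0.15 (adjusted p = 0.000822).

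MRPL28, of bacterial ancestry, had signals of 1119, 1031 and 1161 on day -17, 1274, 1463 and 1759 on day 1 and 1936, 1866 and 1844 on day 17, in ascending bands. MRPL28 rose by 0.77 ± 0.14 on day 17 against day -17 (1.71-fold, adjusted p = 0.00151; -0.51 with hybridization control scaling). Its smaller rise of 0.43 ± 0.14 on day 1 against day -17 (adjusted p = 0.0463) was lost without any 1 of 8 pools, the exception being pool 1 of day 1 (adjusted p 0.0640 to 0.149), without the filter (0.0591) and in the fit of the 6 compared arrays (0.0968). With hybridization control scaling the day 1 difference was 0.01 (adjusted p = 0.9455).

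MRPL17, which lies close to the exit of the peptide tunnel, had signals of 1366, 1298 and 1424 on day -17, 1868, 2181 and 2586 on day 1 and 1736, 1652 and 1900 on day 17. Day 1 was highest, with the lowest day 1 pool just under the highest day 17 pool. MRPL17 rose by 0.69 ± 0.14 on day 1 against day -17 (adjusted p = 0.00689), and its difference on day 17 against day -17 was 0.37 ± 0.14 (adjusted p = 0.0507). With hybridization control scaling the day 1 difference was 0.27 (adjusted p = 0.0885).

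MRPL24 rose on day 17 and had moved little by day 1, with signals of 182, 168 and 202 on day -17, 185, 213 and 234 on day 1 and 331, 306 and 305 on day 17. The day 17 pools stood apart from the other 6. MRPL24, a core protein at the exit tunnel, rose by 0.77 ± 0.17 on day 17 against day -17 (adjusted p = 0.00490; -0.50 with hybridization control scaling), while its difference on day 17 against day 1 was 0.58 ± 0.17 (adjusted p = 0.0508).

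The falls were led by MRPL52, MRPL48 and MRPL45. MRPL52, a mitochondria-specific protein, had signals of 1676, 1671 and 1848 on day -17, 871, 1302 and 1227 on day 1 and 843, 724 and 863 on day 17. Its days formed descending bands. MRPL52 fell by 0.63 ± 0.17 on day 1 against day -17 (adjusted p = 0.0220) and by 1.10 ± 0.17 on day 17 against day -17 (adjusted p = 0.000577), the largest fall of any member by its representing probe set. The day 1 call ended without pool 3 of day -17 (adjusted p = 0.0753) under median centring (0.0701) and with the mean over both of its probe sets (0.941). A second and much dimmer MRPL52 probe set read 139, 170 and 160 on day 17 and 77.3, 141 and 98.1 on day -17, with a difference of 0.61 ± 0.26 on day 17 against day -17 (adjusted p = 0.0815), and the mean over both probe sets did not pass (adjusted p = 0.236).

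MRPL45, which anchors the mitoribosome to the inner membrane at the peptide exit, had signals of 993, 922 and 1137 on day -17, 562, 718 and 646 on day 1 and 651, 628 and 580 on day 17. The lactation days overlapped each other below day -17. MRPL45 fell by 0.67 ± 0.15 on day 1 (adjusted p = 0.00978) and by 0.71 ± 0.15 on day 17 (adjusted p = 0.00316), each against day -17.

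MRPL48, also mitochondria-specific, had signals of 659, 861 and 879 on day -17, 542, 588 and 595 on day 1 and 465, 450 and 528 on day 17, without overlap between the days. MRPL48 fell by 0.73 ± 0.15 on day 17 against day -17 (adjusted p = 0.00377), and its day 1 against day -17 difference was -0.46 ± 0.15 (adjusted p = 0.0520).

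MRPL10, the base of the stalk that recruits translation factors, had signals of 1075, 1295 and 1168 on day -17, 807, 840 and 721 on day 1 and 911, 1029 and 827 on day 17. The day 1 pools were below those of day -17. MRPL10 fell by 0.58 ± 0.14 on day 1 against day -17 (adjusted p = 0.0151), a call lost without pool 2 of day -17 (0.0567) or pool 3 of day 1 (0.0558). MRPL14 fell by 0.60 ± 0.14 on day 17 against day -17 (adjusted p = 0.00536), with pools of 1005 to 1115 on day 17 and 1455 to 1751 on day -17.

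Weaker calls were made for 4 MRPL genes on day 17 against day -17. MRPL44, a protein with a ribonuclease III fold, rose by 0.51 ± 0.17 (adjusted p = 0.0308), MRPL2, a core protein at the catalytic centre, by 0.43 ± 0.15 (adjusted p = 0.0394) and MRPL9 by 0.35 ± 0.13 (adjusted p = 0.0431), all with negative differences of -0.77, -0.84 and -0.93 under hybridization control scaling. MRPL32, whose maturation by a mitochondrial protease precedes its assembly, fell by 0.53 ± 0.19 (adjusted p = 0.0420). Each of these calls was lost when single pools were left out: MRPL44 without pool 1 or 2 of day -17 or pool 1 or 3 of day 17 (adjusted p 0.0565 to 0.111), MRPL2 without any pool of days -17 and 17 or without pool 2 of day 1 (0.0510 to 0.106), MRPL9 without any pool of day -17 or pool 2 or 3 of day 17 (0.0654 to 0.147) and MRPL32 without any pool of day -17 or pool 1 or 2 of day 17 (0.0660 to 0.147). MRPL9 also missed the threshold without the filter (adjusted p = 0.0516). MRPL32 missed it under quantile normalization (0.157), median centring (0.0915), no filter (0.0592), the fit of the 6 compared arrays (0.0530) and the mean over probe sets (0.191).

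Several tested probe sets were present for 13 members, and in each comparison the second probe set had the opposite sign in 4 of them. MRPL33 disagreed most. Its brighter probe set read 764, 700 and 688 on day -17, 1030, 864 and 983 on day 1 and 724, 740 and 826 on day 17, and its dimmer one 597, 683 and 605 on day -17, 296, 384 and 219 on day 1 and 221, 327 and 258 on day 17. The first was higher on day 1 by 0.42 ± 0.13 (adjusted p = 0.0436) and the second lower by 1.10 ± 0.23 (log2 difference -1.10, adjusted p = 0.00715), so MRPL33 is given no direction here although it is among the 16 genes called higher on day 1. On day 17 against day -17 the dimmer probe set was also lower, at -1.24 ± 0.23 (adjusted p = 0.00162), where the brighter one differed by 0.09 ± 0.13 (adjusted p = 0.606). The call of the brighter probe set also ended without any 1 of 8 pools, the exception being pool 2 of day 1 (adjusted p 0.0543 to 0.122), without the filter (0.0587) and in the fit of the 6 compared arrays (0.0781). MRPL18 was higher on day 17 than on day -17 by 0.62 ± 0.15 with its brighter probe set (adjusted p = 0.00598) and had a difference of -0.26 ± 0.17 with the other (adjusted p = 0.231), and the mean over both did not pass (adjusted p = 0.284). On day 1 against day -17 the second MRPL18 probe set was called lower, at -0.55 ± 0.17 (adjusted p = 0.0402), where the first differed by 0.35 ± 0.15 (adjusted p = 0.107). MRPL2 likewise gave 0.43 ± 0.15 and -0.37 ± 0.17 (adjusted p = 0.0394 and 0.101), and 0.03 with the mean over both (adjusted p = 0.872). For MRPS9 the second probe set passed on day 1 against day -17 in the same direction as the first, at -0.87 ± 0.26 (adjusted p = 0.0342), and did not pass on day 17 against day -17, at -0.49 ± 0.26 (adjusted p = 0.137).

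The other 37 members passed in none of the 3 comparisons. Among them were MRPL3, MRPL37 and MRPL30, whose log2 differences between any 2 days lay between -0.10 and 0.16. MRPS7 came near the threshold on day 17 against day -17, with pools of 290, 172 and 180 on day 17 and 311, 338 and 326 on day -17 and a difference of -0.64 ± 0.26 (adjusted p = 0.0614). MRPL35 had the day 1 peak shape without passing, at 1234, 1417 and 1554 on day 1 against 1071, 1114 and 926 on day 17 (day 17 against day 1 difference of -0.43 ± 0.14, adjusted p = 0.0694). MRPS11 and MRPL46 are neighbouring protein-coding genes in the RefSeq annotation of the Sscrofa11.1 assembly; MRPL46 differed by -0.015 ± 0.16 on day 1 against day -17 (adjusted p = 0.952), where MRPS11 was called higher.

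Rises and falls occurred both among proteins inherited from the bacterial ribosome and among those added in mitochondria. By the convention of the symbols, MRPL numbers up to 36 and MRPS numbers up to 21 mark proteins named after bacterial counterparts, and higher numbers mostly mark mitochondria-specific ones. On day 17 against day -17, 6 of 21 lower-numbered MRPL genes rose and 2 fell, and of 15 higher-numbered ones 4 rose and 3 fell. For the MRPS genes the same counts were 2 higher and 3 lower of 11 lower-numbered genes, and 3 higher and 2 lower of 11 higher-numbered ones. The shares called higher in these 4 classes were 28.6%, 26.7%, 18.2% and 27.3%, near the 23.8% of all tested genes. Those called lower were 9.5%, 20.0%, 27.3% and 18.2%, where 23.8% of all tested genes were called lower. With hybridization control scaling none of these 4 classes had a gene called higher, and 21, 14, 10 and 11 of their genes were called lower.

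Most members shared an order of the day 1 pools. On that day pool 3 was the brightest for 56 of the 76 members, 73.7%, while it was brightest for 38.4% of all tested genes, and pool 1 was dimmest for 57 members, 75%, and for 46.5% of all genes. The median log2 difference of pool 3 minus pool 1 was 0.32 over the members and 0.10 over all genes. The difference was positive for 66 of the 76 members, 86.8%, and for 59.0% of all genes. By family it was positive for 31 of 36 MRPL, 18 of 22 MRPS, all 11 TIMM and 6 of 7 TOMM genes. Subunits of oxidative phosphorylation (0.38, positive in 60 of 62) and cytosolic ribosomal proteins (0.32, positive in 59 of 61) leaned the same way. On day -17 pool 3 was brightest for 39 members, 51.3%, and for 31.9% of all genes, and on day 17 no pool was brightest for more than 38.2% of the members.

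The same day 1 pools differed in markers of cell types. From pool 1 to pool 3 of day 1, the summed signal of the 12 milk protein and luminal genes was 239439, 316118 and 340305. That of 6 fibroblast genes was 50594, 21623 and 31550, that of 9 adipocyte genes 33117, 21544 and 24828, and that of 5 macrophage genes 9255, 5646 and 4368. No marker was listed at 0 on any array. The part of these cell types in the members' pool differences was not tested.

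**Figure D4:**
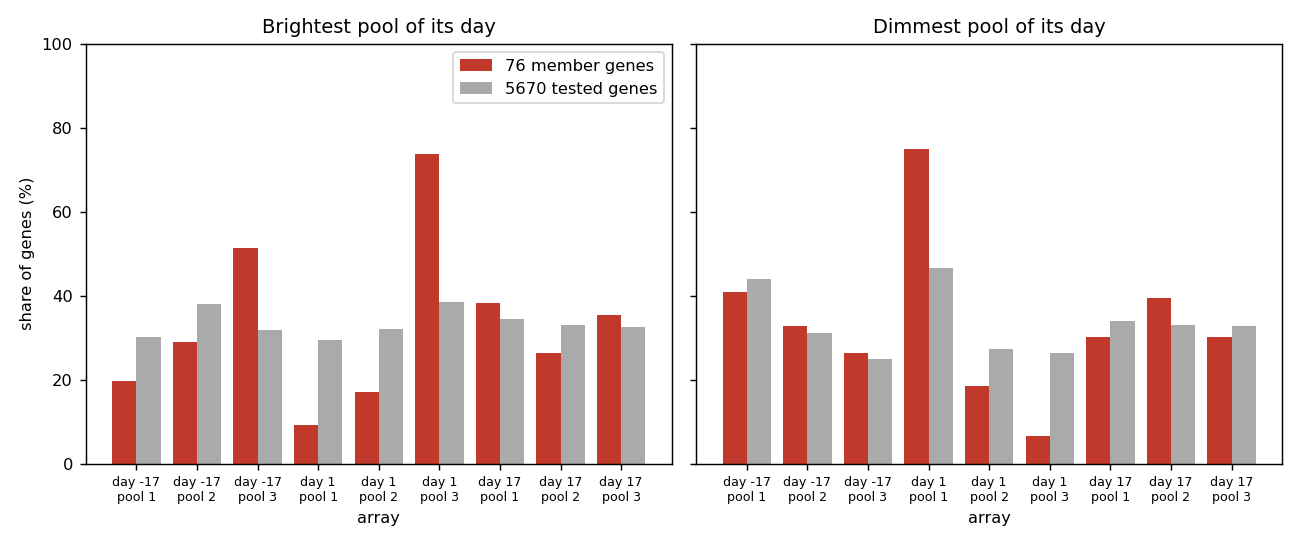
Share of genes (vertical axis, percent) for which each of the 9 pools (horizontal axis) was the brightest (left) or the dimmest (right) of its day, with red bars for the 76 member genes and grey bars for the 5670 tested genes. On day 1 the red bar of pool 3 reaches 73.7% on the left and that of pool 1 reaches 75% on the right, against 38.4% and 46.5% for all genes.

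Fibroblast and adipocyte markers also moved with the days. For scale, 15.3% of all tested genes were called higher and 10.4% lower on day 1 against day -17. On day 17 against day -17 the shares were 23.8% higher and 23.8% lower. On day 1 against day -17, 7 of the 12 milk protein and luminal genes rose and none fell (median log2 difference 0.84). Falls were called for 2 of 4 T and NK cell genes (median -1.34), 2 of 9 adipocyte genes (-1.19), 1 of 6 fibroblast genes (-0.65) and 1 of 6 endothelial genes (0.23). In the same comparison 1 of 5 macrophage genes rose (0.31) and none of 4 myoepithelial genes passed (0.26). Of the 6 tested fibroblast genes, none rose and 4 fell on day 17 against day -17, with summed signals of 20299 to 23846 on day 17 and 42692 to 54603 on day -17. Of 9 adipocyte genes, 2 rose and 5 fell, although their summed signals of 32853 to 33345 on day 17 lay within those of 13655 to 38521 on day -17. In the milk protein and luminal list 8 of 12 rose and 2 fell. Endothelial (0 higher and 1 lower of 6), myoepithelial (2 and 0 of 4), T and NK cell (0 and 0 of 4) and macrophage lists (1 and 1 of 5) had few calls; a single neutrophil gene and no skeletal muscle gene was bright enough to test. Summed signals on days 17 and -17 were 5774 to 7070 and 5766 to 9127 for the endothelial list, 26772 to 37245 and 21142 to 27711 for the myoepithelial list, 433 to 560 and 448 to 785 for the T and NK cell list and 3311 to 4262 and 4544 to 5871 for the macrophage list. The part of cell composition in the members' changes between days was not tested.

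Genes that work with the mitoribosome were few on the array and mostly small in their changes. For scale, 15.3% of all tested genes were called higher and 10.4% lower on day 1 against day -17. On day 17 against day -17 the shares were 23.8% higher and 23.8% lower. Of 7 translation factors, 3 rose on day 17 against day -17, namely the release factor MTRF1 (1.00 ± 0.27, adjusted p = 0.0129), the elongation factor TSFM (0.57 ± 0.14, adjusted p = 0.00763) and the formyltransferase MTFMT (0.47 ± 0.15, adjusted p = 0.0256), and none fell (0 higher and 6 lower with hybridization control scaling). Of 8 genes for charging mitochondrial tRNAs, only QRSL1, which makes glutaminyl-tRNA by amidation, rose. It rose by 0.71 ± 0.23 on day 1 (adjusted p = 0.0436) and by 0.72 ± 0.23 on day 17 (adjusted p = 0.0249), both against day -17. With that scaling 0 of the 8 were higher and 2 lower on day 1, and 8 were lower on day 17. Of 13 assembly and ribosomal RNA modification genes, only the helicase gene DHX30 passed; it fell by 0.49 ± 0.16 on day 1 (adjusted p = 0.0461) and by 0.80 ± 0.16 on day 17 (adjusted p = 0.00239). Of 4 mitoribosomal proteins with other symbols, GADD45GIP1 rose by 0.71 ± 0.17 on day 17 against day -17 (adjusted p = 0.00656) and PTCD3 fell by 0.72 ± 0.25 (adjusted p = 0.0367), with all 4 lower under that scaling.

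Partners of the import machinery moved both ways. Of 17 tested, 2 rose and 1 fell on day 1 against day -17 (0 higher and 7 lower with hybridization control scaling). On day 17 against day 1, 1 fell (16 lower with that scaling). Against day -17, 3 rose and 3 fell on day 17, 17.65% each (all 17 lower with that scaling). In these comparisons 15.3%, 8.02% and 23.8% of all tested genes were called higher, and 10.4%, 8.57% and 23.8% lower. HSPA8, a cytosolic chaperone that delivers precursors to TOMM70, rose by 0.71 ± 0.20 on day 1 against day -17 (adjusted p = 0.0269). HSP90AA1, which serves the same receptor, fell by 0.68 ± 0.11 on day 17 against day 1 (adjusted p = 0.00484) and by 0.68 ± 0.11 on day 17 against day -17 (adjusted p = 0.000710). CHCHD4, the oxidoreductase that folds the small TIM proteins, rose by 0.66 ± 0.24 on day 17 against day -17 (adjusted p = 0.0432). PMPCA, a subunit of the peptidase that removes targeting sequences, rose by 0.54 ± 0.15 on day 1 against day -17 (adjusted p = 0.0241), and IMMP2L, an inner membrane peptidase, fell by 0.61 ± 0.19 in that comparison (adjusted p = 0.0439) and by 0.78 ± 0.19 on day 17 against day -17 (adjusted p = 0.00865).

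Regulators of mitochondrial biogenesis were lower in lactation where they passed, with the exception of SLIRP. Of 8 tested, none rose and 3 fell on day 1 against day -17, and 1 rose and 3 fell on day 17 against day -17 (8 lower with hybridization control scaling). The shares of all tested genes were 15.3% higher and 10.4% lower in the first comparison, and 23.8% each in the second. TFAM, which packages and transcribes mitochondrial DNA, fell by 0.74 ± 0.14 on day 1 (adjusted p = 0.00437) and by 0.70 ± 0.14 on day 17 (adjusted p = 0.00237) against day -17. MYC fell by 0.73 ± 0.16 on day 1 (adjusted p = 0.00939) and by 0.94 ± 0.16 on day 17 (adjusted p = 0.00108). A further called gene, not named here, fell at least 2-fold on day 17 against day -17. The lowest log2 difference of the list in that comparison was -2.75. The RNA-stabilising SLIRP rose by 0.38 ± 0.12 on day 17 against day -17 (adjusted p = 0.0244; the median of the list was -0.44).

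Other genes of mitochondrial membranes and matrix, used as a gauge of mitochondrial content, were also split. Of 12, 3 rose and 1 fell on day 1 against day -17, 2 fell on day 17 against day 1, and 2 rose and 4 fell on day 17 against day -17 (12 lower with hybridization control scaling). In these comparisons 15.3%, 8.02% and 23.8% of all tested genes were called higher, and 10.4%, 8.57% and 23.8% lower. The outer membrane channel genes diverged: VDAC2 rose by 1.12 ± 0.14 on day 1 (adjusted p = 0.000584) and by 0.81 ± 0.14 on day 17 (adjusted p = 0.00123) against day -17. VDAC1 and VDAC3 fell by 0.99 ± 0.15 (adjusted p = 0.000498) and by 1.11 ± 0.13 (adjusted p = 0.000134) on day 17 against day -17.

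The members were set beside the other large parts of the respiratory and protein synthesis machinery. On day 17 against day -17, 26.3% of the 76 members rose and 15.8% fell, against 23.8% and 23.8% of all tested genes. In that comparison 15 of 62 oxidative phosphorylation genes (24.2%) rose and 5 (8.1%) fell. Of 61 cytosolic ribosomal protein genes, 30 (49.2%) rose and 4 (6.6%) fell. The median log2 differences were 0.10 for the members, 0.12 for oxidative phosphorylation and 0.31 for the cytosolic ribosomal proteins. Quantile normalization gave 24 members higher and 11 lower and turned the cytosolic ribosomal proteins to 0 higher and 37 lower, with oxidative phosphorylation at 12 and 12. On day 1 against day -17 the medians were 0.19, 0.21 and 0.16. Calls were 15 higher and 1 lower for oxidative phosphorylation and 1 higher and 2 lower for the cytosolic ribosomal proteins. Of all tested genes, 15.3% were called higher and 10.4% lower in that comparison. With hybridization control scaling no gene of these 3 groups was called higher on day 17 against day -17. These counts are descriptions, and no test of the difference between the groups was made.

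**Figure D5:**
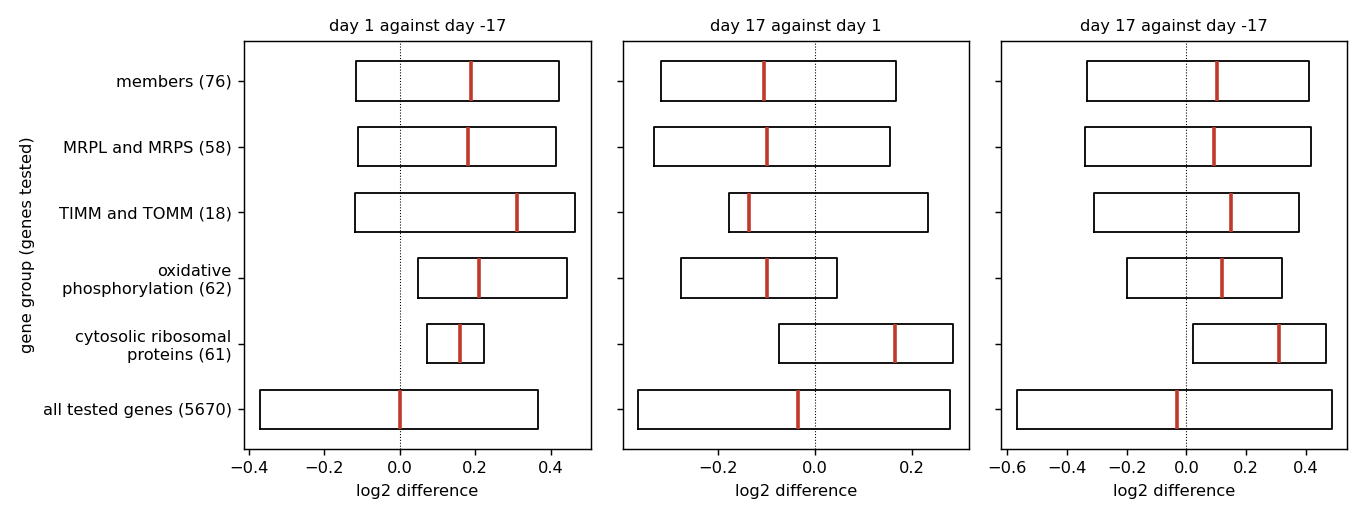
Quartiles of the log2 difference over the genes of 6 groups (rows, with the number tested) in the 3 comparisons (panels), where each box runs from the lower to the upper quartile and the red line is the median, relative to each array's trimmed mean. In the right panel the medians are 0.10 for the members, 0.12 for oxidative phosphorylation, 0.31 for cytosolic ribosomal proteins and -0.03 for all genes; hybridization control scaling turned the first 3 negative and quantile normalization turned the third negative.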

How the data were processed

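Total RNA of pooled mammary biopsies, 3 pools per day on 3 days, had been hybridized to Affymetrix porcine GeneChips. The deposited values are linear signal intensities, for which the submitters' processing notes name MAS5; its version is not given in the sources used here. Trimmed means (2% off each end) nearly coincide across arrays, and no value is 0.

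Symbols came from the platform annotation: of 24123 probe sets, 10099 had 1 symbol, 198 several and 13826 none here. The 124 Affymetrix control probe sets were left out. Tests were limited to the 15519 probe sets that reached the array's 40th percentile on at least 3 arrays. Log2 signals, with no pseudocount, were fitted by lmFit and eBayes (trend) of limma 3.58.1, run under R 4.3.3, on all 9 arrays with day as the only term, two-sided, with Benjamini-Hochberg adjustment at 0.05. The code was tested on simulated data. An exact test of 3 against 3 pools cannot go below p = 0.1, so single genes were not tested that way. The number of arrays limits the precision.

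All members may be named; signals per array are given for the 3 largest called rises and falls per family and comparison and for listed paralogs, and other genes were described where they bear on a result. From each pathway list up to 2 called genes per direction and comparison are named, with a few more where a count of 5 or fewer is spelled out. The members and lists were chosen with earlier results of these data known. No list was tested as a set.

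Same-numbered pools deviated together from their day's mean: correlations across probe sets were 0.235 to 0.506 for days 1 and -17, 0.105 to 0.130 for days 17 and -17 and 0.0960 to 0.107 for days 17 and 1. The pool number served as a fixed or random block in alternatives. Other alternatives were quantile normalization, median centring, scaling to 27 hybridization control probe sets, a pseudocount of 16, no filter or the 60th percentile, only the 6 arrays compared, the mean over a gene's probe sets, and leaving out each array.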

Additional observations from a re-analysis of the deposited data

How the results depend on the processing

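Quantile normalization, median centring and a pseudocount left the direction of every called member value as it was. The stricter filter, no filter, the 6 compared arrays alone and the replicate block leave a probe set's log2 difference unchanged by design. They could not turn its direction and bear only on the adjusted p. Scaling to the hybridization controls changed the counts most: on day 1 against day -17 they became 5 higher and 25 lower, on day 17 against day 1 they became 0 higher and 70 lower, and on day 17 against day -17 they became 0 higher and 72 lower. Under it all 20 member rises on day 17 against day -17 turned negative, with values of MRPL1 (-0.49), MRPL18 (-0.65), MRPL2 (-0.84), MRPL24 (-0.50), MRPL28 (-0.51), MRPL40 (-0.47), MRPL43 (-0.54), MRPL44 (-0.77), MRPL54 (-0.22), MRPL9 (-0.93), MRPS17 (-0.27), MRPS2 (-0.61), MRPS24 (-0.80), MRPS25 (-0.56), MRPS34 (-0.46), TIMM21 (-0.82), TIMM8B (-0.014), TOMM20 (-0.35), TOMM5 (-0.99), TOMM70 (-0.20). Of these, TIMM8B, MRPS17, MRPL54 and TOMM70 were not called lower (adjusted p = 0.9115, 0.0645, 0.181 and 0.583). MRPL54 on day 17 against day 1 became -0.31, and MRPL33 on day 1 against day -17 became -0.00235; with the mean over probe sets MRPL33 became -0.34. Since the controls were brighter on the later days, that scaling lowers every gene on them, and the cause of the controls' brightness was not tested. The single rise on day 17 against day 1 numbered 0 with median centring or no filter and 2 with a pseudocount of 16, a fixed or random replicate block or the mean over probe sets.

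With each pool left out in turn, rises on day 1 against day -17 numbered 10 to 19 and falls 2 to 5, rises on day 17 against day 1 numbered 0 to 2 and falls 2 to 7, and rises on day 17 against day -17 numbered 14 to 21 and falls 7 to 14. Calls kept under every alternative other than hybridization control scaling were 11 of 20 on day 1 against day -17, 2 of 5 on day 17 against day 1 and 19 of 32 on day 17 against day -17. Under hybridization control scaling, 9 of the 20 calls on day 1 against day -17 were kept, 10 were lost and 1 changed sign. Under the fixed replicate block, members called higher and lower were 18 and 6, 2 and 5, and 21 and 12 in the 3 comparisons, and TIMM22 on day 17 against day -17 was the single call lost (adjusted p = 0.0584). With 3 pools per day, the precision rests on the spread between pools, and sows shared across days are not modelled outside the block. The MAS5 signal of dim genes such as TOMM70, MRPS36 and TIMM44 varied widely between pools.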
